A study of Mus musculus with 4 samples.

Results

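The genes described here are the Tlx homeobox genes *Tlx1*, *Tlx2* and *Tlx3*, the paired-type homeobox gene *Prrxl1*, the Brn3 POU genes *Pou4f1*, *Pou4f2* and *Pou4f3*, and *Ranbp17*, which lies next to *Tlx3* on chromosome 11. They were found by their symbols and make up 8 of the 24421 genes in the deposited table of RPKM, that is, reads per kilobase of exon scaled to the size of the library. They were chosen by their RPKM difference between the genotypes in these same libraries and by the place of *Ranbp17* beside *Tlx3*, so their values are given as a description, with standard errors and with no p-value. The libraries hold poly(A) RNA of GFP+ cells that flow cytometry had separated from dissociated mouse neural tubes at E11.5, from embryos heterozygous (*Prdm13* GFP/+) or homozygous (*Prdm13* GFP/GFP) for a knock-in allele. In this allele GFP with a stop is inserted into exon 1 of *Prdm13*, which disrupts PRDM13, a zinc finger regulator of dorsal interneuron fate. Every embryo carried at least 1 GFP allele, the heterozygotes were the controls, and the mice had a mixed ICR and C57Bl/6 background. RNA of 7 heterozygous and of 9 homozygous embryos was combined into 1 pool per genotype, and 2 libraries were made from each pool. The libraries of a genotype are therefore technical replicates, and the standard errors and adjusted p-values below measure the spread between libraries of 1 pool and not the spread between embryos.

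In the dorsal neural tube, neurons of different transmitter type are born beside each other and are told apart by the homeodomain factors they make. TLX1 and TLX3 act in excitatory (glutamatergic) dorsal interneurons, where they favour glutamatergic over GABAergic differentiation. PRRXL1, also called DRG11, is made in sensory neurons and in the dorsal horn neurons that receive their input, and POU4F1, also called BRN3A, marks sensory neurons and several classes of dorsal excitatory interneuron. RANBP17 belongs to the importin and exportin family of nuclear transport receptors.

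Effective library sizes, solved from the steps in the RPKM values, were 11572778 and 18323396 reads in the heterozygous libraries and 16258830 and 13678321 in the homozygous ones. Between 11774 and 11831 genes per library had an RPKM of at least 1, and 12046 genes had a mean of at least 1 in either genotype and were compared. The targeted gene *Prdm13* had 114 and 127 RPKM in the heterozygous and 310 and 324 RPKM in the homozygous libraries. The value sums reads over all exons of the gene, including those that the knock-in leaves in place, and so does not measure the disruption itself. *Lbx1*, a factor of dorsal interneurons, had 89.3 and 106 against 59.7 and 68.1 RPKM. *Tubb3*, a tubulin gene of neurons, had a log2 difference of homozygous minus heterozygous of 0.34 (adjusted p = 0.00688) and *Sox2*, a progenitor factor, one of -0.48 (adjusted p = 0.00214), both short of 1.5-fold, and the part of such a shift in the differences below was not tested. In bulk RNA, fewer cells of a type and less RNA per cell cannot be told apart.

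E-boxes are sites at which the bHLH factors of dorsal neural tube development bind, and the promoters of these genes were searched for them. Distal sites, where the authors found most PRDM13 binding, are not covered by these windows. Whether any motif has a part in the differences between genotypes was not tested. The RefSeq promoter table (GRCm38.p6) held 6 of the 8 genes, all but *Tlx2* and *Pou4f3*. The 250 bases before each listed start site were searched for the E-box CANNTG, which reads as an E-box on both strands, for CAGCTG, which is one form of it, for the homeodomain core TAATTA and, after the sequences had been seen, for CCAAT on both strands. The *Tlx3* and *Ranbp17* windows are shown because the genes are neighbours, and that of *Pou4f2* because, like that of *Tlx3*, it lies wholly outside the annotated gene. Capitals mark CANNTG and CCAAT, and each sequence is written 5′ to 3′ on the strand of its gene, which is the minus strand for these genes.
Tlx3, chr11:33203589-33203838: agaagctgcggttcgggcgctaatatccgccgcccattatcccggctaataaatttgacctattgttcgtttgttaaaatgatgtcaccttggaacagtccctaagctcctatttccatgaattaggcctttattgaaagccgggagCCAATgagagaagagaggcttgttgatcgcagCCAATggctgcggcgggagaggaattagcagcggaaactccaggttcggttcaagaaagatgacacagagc
Ranbp17, chr11:33513785-33514003: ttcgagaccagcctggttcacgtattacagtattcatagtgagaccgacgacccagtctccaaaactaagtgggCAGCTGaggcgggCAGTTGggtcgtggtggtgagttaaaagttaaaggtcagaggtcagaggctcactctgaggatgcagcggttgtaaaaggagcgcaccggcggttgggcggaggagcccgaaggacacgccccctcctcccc
Pou4f2, chr8:78436648-78436897: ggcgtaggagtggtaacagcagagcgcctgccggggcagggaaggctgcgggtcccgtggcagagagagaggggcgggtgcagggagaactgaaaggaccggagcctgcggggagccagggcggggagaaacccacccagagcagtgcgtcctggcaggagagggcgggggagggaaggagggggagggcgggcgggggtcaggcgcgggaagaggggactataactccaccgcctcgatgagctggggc
The *Ranbp17* window is cut to the 219 bases outside the annotated gene. The *Tlx3* window held 0 E-boxes and 2 CCAAT motifs, and the *Ranbp17* window held 2 E-boxes, one of them CAGCTG, and 0 CCAAT motifs. The windows of *Tlx1* and *Prrxl1* lie inside the annotated genes and that of *Pou4f1* lies partly inside, so they are not wholly sequence upstream of the gene. Of the windows not printed, that of *Pou4f1* held 2 E-boxes, that of *Tlx1* held 1 E-box and 1 CCAAT motif, and that of *Prrxl1* held none of these motifs. *Pou4f2* had none either, and TAATTA was found in 0 of the 6. CANNTG occurs in 66.2% of the 32851 promoters of the table, CCAAT in 33.8%, CAGCTG in 13% and TAATTA in 4.84%. A match is a description of the letters in the window.

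*Tlx3*, the selector of dorsal excitatory fate with the highest level of its family, lies on the minus strand of chromosome 11 (GRCm38, 33200752 to 33203588). It had 4.63 and 5.63 RPKM in the heterozygous and 86.2 and 94.1 RPKM in the homozygous libraries. The genotypes were far apart, and both homozygous libraries stood well above both heterozygous ones. The reads behind these values were 82 and 158 against 2146 and 1971. Mean RPKM was 5.13 ± 0.710 (SD, n = 2 libraries) in heterozygous and 90.1 ± 5.59 in homozygous cells, a ratio of 17.6. On the log2(RPKM + 0.1) scale used for all log2 differences here, the difference of homozygous minus heterozygous was 4.11 with a standard error of 0.0981, and *Tlx3* ranked 7 among the 12046 genes compared. In level it moved from the percentile 26.4 of these genes in heterozygous cells to 93.8 in homozygous cells.

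*Tlx1*, its relative with overlapping function in dorsal horn neurons, lies on chromosome 19 (45150092 to 45156943, plus strand). It had 0.936 and 0.914 RPKM in the heterozygous and 3.85 and 4.07 RPKM in the homozygous libraries. These are low levels in both genotypes, and the libraries did not overlap between them. The fold of the means was 4.28 and the log2 difference 1.98 with a standard error of 0.136, from 22 and 34 reads against 127 and 113. *Tlx2*, a homeobox gene of neural crest derivatives such as enteric neurons, lies on chromosome 6 (83068325 to 83070225, minus strand). It had 0.362 and 0.419 RPKM in the heterozygous and 0.172 and 0.153 RPKM in the homozygous libraries. *Tlx2* went the other way from *Tlx1* and *Tlx3*, with both homozygous libraries below both heterozygous ones, but on few reads. In all 17 heterozygous and 7 homozygous reads were found, a ratio of homozygous to heterozygous of 0.411 with a 95% interval of 0.144 to 1.04 (exact, Clopper-Pearson, counting error only), and the gene was under the filter and not compared.

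The Tlx genes differed among themselves as well as between genotypes. Their summed RPKM was 6.44 ± 0.734 in heterozygous and 94.2 ± 5.73 in homozygous cells (SD, n = 2 libraries each), a ratio of 14.6. *Tlx3* made up 78.1 and 80.9% of the sum in the heterozygous libraries and 95.5 and 95.7% in the homozygous ones. The share of *Tlx1* was 15.8 and 13.1% against 4.27 and 4.14%, although its own RPKM was higher in homozygous cells. The ratio of *Tlx3* to *Tlx1* in RPKM, which is per length, was 4.94 and 6.16 in the heterozygous and 22.4 and 23.1 in the homozygous libraries.

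**Figure D1:**
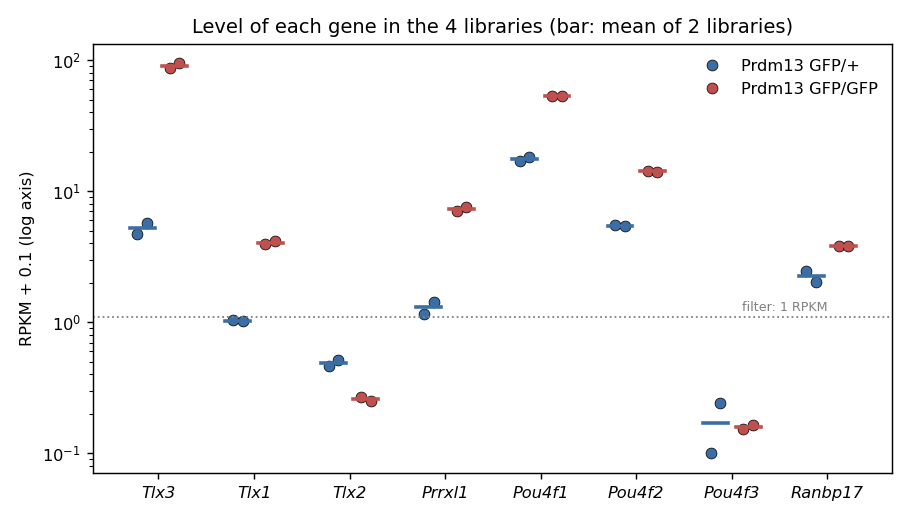
Level of the 8 genes in each library, as RPKM + 0.1 on a log axis, with heterozygous (blue) and homozygous (red) libraries as points and the mean of 2 libraries as a bar. *Tlx3* shows the widest gap (4.63 and 5.63 against 86.2 and 94.1 RPKM), *Tlx2* and *Pou4f3* lie under the 1 RPKM line, and only *Pou4f3* overlaps between genotypes.

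*Prrxl1*, the DRG11 gene, lies on the plus strand of chromosome 14 (32595867 to 32649246). It had 1.06 and 1.34 RPKM in the heterozygous and 6.98 and 7.45 RPKM in the homozygous libraries. Both homozygous libraries were above both heterozygous ones, and the heterozygous libraries differed from each other by 0.31 on the log2 scale of RPKM. The fold of the means was 6.02 and the log2 difference 2.50 with a standard error of 0.135. Its reads could be solved only up to a common factor, as 19 and 38 against 176 and 158 or a whole multiple of these, so the precision that counting gives is uncertain for this gene. Relative to *Tlx3* it was lower in homozygous cells. The ratio of *Tlx3* to *Prrxl1* in RPKM was 4.37 and 4.21 in the heterozygous and 12.3 and 12.6 in the homozygous libraries.

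*Pou4f1*, the BRN3A gene, lies on the minus strand of chromosome 14 (104461675 to 104468118). It had 16.9 and 18.1 RPKM in the heterozygous and 52.9 and 52.7 RPKM in the homozygous libraries. It was the most abundant of the 8 genes in heterozygous cells and stood second to *Tlx3* in homozygous cells. The fold of the means was 3.01 and the log2 difference 1.59 with a standard error of 0.0542, from 744 to 3262 reads per library. The ratio of *Tlx3* to *Pou4f1* in RPKM was 0.273 and 0.311 in heterozygous libraries and 1.63 and 1.79 in homozygous ones, so the order of these genes was opposite in the genotypes.

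*Pou4f2*, the BRN3B gene known from retinal ganglion cells, lies on the minus strand of chromosome 8 (78433009 to 78436647). It had 5.43 and 5.28 RPKM in the heterozygous and 14.1 and 14.0 RPKM in the homozygous libraries. The 2 libraries of each genotype were close to each other and the genotypes did not overlap. The fold of the means was 2.62 and the log2 difference 1.37 with a standard error of 0.0624. *Pou4f3*, the BRN3C gene known from hair cells of the inner ear, lies on the plus strand of chromosome 18 (42394597 to 42396093). Its RPKM was 0 and 0.143 in the heterozygous and 0.0537 and 0.0638 in the homozygous libraries, from 0, 6, 2 and 2 reads. It was under the level that 3 reads give (0.0714 to 0.113 RPKM) in every library but heterozygous library 2, which held 6 reads. The genotypes overlapped, and no difference was detectable at this depth.

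The summed RPKM of the Brn3 genes was 22.9 ± 0.798 in heterozygous and 66.9 ± 0.214 in homozygous cells (SD, n = 2 libraries each), a ratio of 2.92. Unlike in the Tlx genes, the make-up of the sum was similar in the genotypes. *Pou4f1* made up 75.7 and 76.9% in heterozygous and 78.9 and 78.9% in homozygous libraries. The ratio of *Pou4f1* to *Pou4f2* was 3.12 and 3.42 against 3.75 and 3.76, so the libraries of the genotypes did not overlap in this ratio either, but by far less than in *Tlx3* to *Tlx1*.

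**Figure D2:**
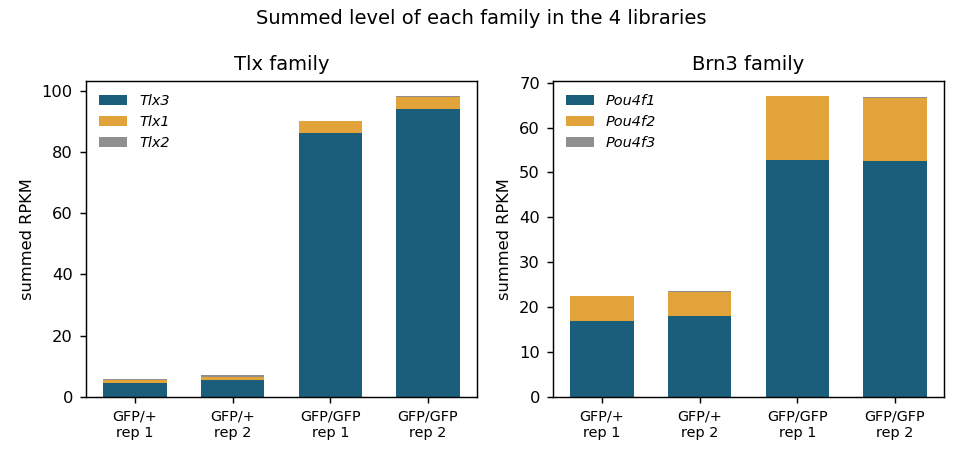
Summed RPKM of the Tlx genes (left) and the Brn3 genes (right) in each library, with the part of each gene stacked. The Tlx sum is 14.6 times as high in the homozygous cells and is mostly *Tlx3* there, while the Brn3 sum is 2.92 times as high with *Pou4f1* at 75.7 to 78.9% throughout.

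In order of level, the heterozygous cells held *Pou4f1*, *Pou4f2*, *Tlx3*, *Ranbp17*, *Prrxl1*, *Tlx1*, *Tlx2* and *Pou4f3*. *Pou4f2* (5.28 and 5.43 RPKM) and *Tlx3* (4.63 and 5.63 RPKM) did not differ there beyond their spread. The homozygous cells held *Tlx3*, *Pou4f1*, *Pou4f2*, *Prrxl1*, *Tlx1*, *Ranbp17*, *Tlx2* and *Pou4f3*, and the libraries of neighbours in this order did not overlap. *Tlx1* (3.85 and 4.07 RPKM) and *Ranbp17* (3.72 and 3.73 RPKM) were close there. *Tlx2* stood above *Pou4f3* on only 4 and 3 against 2 and 2 reads. The order within these pairs is therefore uncertain. Of the 8 genes, 6 passed the filter, and all 6 were called higher in homozygous cells by the limits used for the whole table (limma, adjusted p under 0.05 and at least 1.5-fold), a count that the choice of the genes fixes. Among all genes compared 3.65% were called higher and 2.67% lower, 6.33% in either direction. In 6 of the 8 genes both homozygous libraries were above both heterozygous ones and in 1, *Tlx2*, below. Among all genes compared these shares were 31.7% and 30.3%.

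*Ranbp17* starts far upstream of *Tlx3* on the same strand of chromosome 11 (33211794 to 33513784) and ends 8206 bases before the *Tlx3* start site, without overlap. It had 2.36 and 1.94 RPKM in the heterozygous and 3.72 and 3.73 RPKM in the homozygous libraries. The genotypes did not overlap, but the difference was small beside that of its neighbour. The fold of the means was 1.73 and the log2 difference 0.77 with a standard error of 0.129, from 140 and 182 reads against 310 and 261. It lost its call when heterozygous library 2, homozygous library 1 or homozygous library 2 was left out, with log2 differences of 0.64 to 0.91 over the libraries left out in turn. The ratio of *Tlx3* to *Ranbp17* in RPKM was 1.96 and 2.90 in the heterozygous and 23.1 and 25.2 in the homozygous libraries.

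Other nuclear transport receptors of the same family were compared beside it. Of 7 such genes 0 were called in either direction, where 6.33% of all genes were, so the count is near that background. Their median log2 difference was -0.12, with 1 value above 0 and 6 below, where the median of all genes was 0.010. *Xpo7*, the closest relative of *Ranbp17*, had 10.1 and 10.1 RPKM in heterozygous and 9.22 and 9.36 RPKM in homozygous libraries (log2 difference -0.12, adjusted p = 0.206). *Xpo4* had the largest value of the list (-0.53, adjusted p = 0.0036), which was short of 1.5-fold.

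On the other side of *Tlx3* lie *Npm1*, which encodes the abundant nucleolar protein nucleophosmin, and *Fgf18*, which encodes a secreted growth factor. *Npm1*, 36610 bases away, had 516 and 487 RPKM in heterozygous and 521 and 494 RPKM in homozygous libraries, with a log2 difference of 0.01 (adjusted p = 0.862). *Fgf18*, 53352 bases away, had 9.16 and 8.75 against 13.5 and 14.4 RPKM. It was called higher with a log2 difference of 0.63 (adjusted p = 0.00156), which is close to the limit of 1.5-fold, and was not called without homozygous library 2 (0.58) or with a pseudocount of 1 (0.58). *Kcnip1*, a potassium channel partner 115555 bases beyond the far end of *Ranbp17*, had 1.09 and 1.16 against 2.40 and 1.93 RPKM. It was called higher (log2 difference 0.88, adjusted p = 0.0187), but lost the call whichever library was left out (0.73 to 1.03) and with a pseudocount of 1 (0.57). *Gabrp*, between *Ranbp17* and *Kcnip1*, was listed at 0 in all libraries but homozygous library 1, which held 1 read. Of the genes compared here, *Tlx3* had the widest difference and *Npm1* was near the median of all genes. The calls of *Fgf18*, *Ranbp17* and *Kcnip1* depended on the libraries used, so their contrast with *Npm1* is weak.

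**Figure D3:**
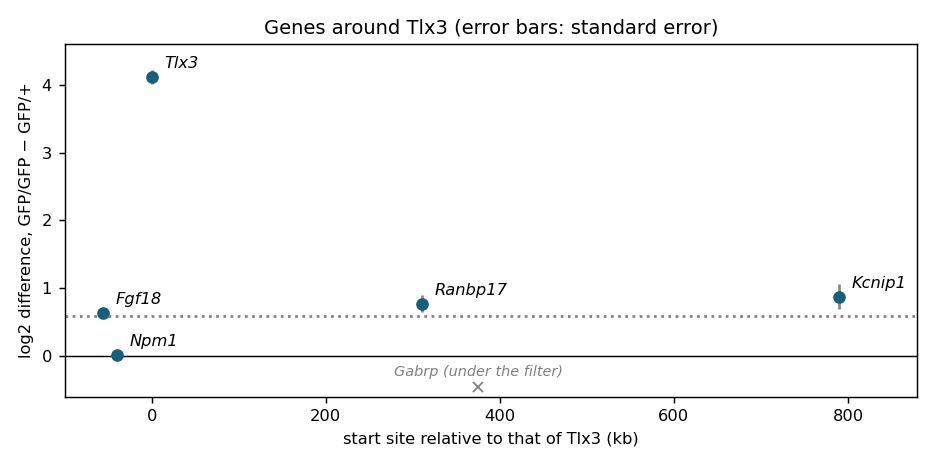
Log2 difference (homozygous minus heterozygous, RPKM + 0.1) of the genes around *Tlx3*, against the distance of their start sites from that of *Tlx3* in kb, with standard errors and a dotted line at 1.5-fold. *Tlx3* stands at 4.11, *Fgf18*, *Ranbp17* and *Kcnip1* between 0.63 and 0.88 and *Npm1* at 0.01, and *Gabrp* (cross, drawn under the axis of 0) was under the filter.

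Around all 8 genes, 60 other genes of the table lie within 250 kb, and 35 of them were compared. Of these, 3 were called higher and 1 lower and 31 were not called, and their median log2 difference was 0.0050. The share called is to be read against 3.65% higher and 2.67% lower over all genes. The 31 genes not called had log2 differences of -0.55 to 0.35. *Lbx1*, 75741 bases from *Tlx1*, was the one called lower, with 89.3 and 106 against 59.7 and 68.1 RPKM (log2 difference -0.61, adjusted p = 0.00759). It was not called without heterozygous library 2 (-0.49) or without homozygous library 1 (-0.51). The third gene called higher, *Mir3470a* near *Tlx2*, rested on 2 and 2 against 10 and 6 reads and dropped out where at least 20 reads in a library were required. A microRNA gene of this kind is a short feature, poly(A) libraries are not made to measure it, and near-identical copies elsewhere could share its reads. *Rnf219*, 9416 bases from *Pou4f1*, had a log2 difference of 0.35 (adjusted p = 0.00644), short of 1.5-fold. No gene compared near *Prrxl1* (2 genes), *Pou4f2* (2 genes) or *Pou4f3* (4 genes) was called.

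Other factors listed with dorsal excitatory lineages and progenitors were mostly higher in homozygous cells where they passed the filter. Of 13 such genes reported here, 9 were compared, 7 were called higher, 0 lower and 2 not, with a median log2 difference of 1.05. The list is mixed. The paper names PHOX2A among the ventral factors made dorsally in the mutant. It places NEUROG1 and NEUROG2 in dI2 and dI6 progenitors and in the ventral neural tube. Over all genes compared 3.65% were called higher and 2.67% lower, and the median was 0.010. The list was written with earlier results of these libraries known and is no independent evidence of direction. *Lmx1b*, the partner of *Tlx3* in the dI5 class, had 1.84 and 1.88 against 22.2 and 20.9 RPKM (log2 difference 3.46, adjusted p = 3.4e-06). *Isl1*, which marks the dI3 class, had 1.71 and 1.66 against 7.84 and 7.38 RPKM (2.11, adjusted p = 3.79e-05). These are classes in which TLX3 is also made.

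*Phox2a*, a homeobox gene of autonomic and hindbrain neurons, showed a difference close in size to that of *Lmx1b*. It had 0.967 and 1.49 against 16.3 and 16.4 RPKM (log2 difference 3.66, adjusted p = 5.71e-05). Among bHLH genes, *Neurog1* (1.79, adjusted p = 0.000322) and *Neurog2* (0.81, adjusted p = 0.00084) were called higher. *Ebf2* was called (0.79, adjusted p = 0.000456) and *Ebf1* was just short of 1.5-fold (0.56), and *Foxp2*, at 2.22 to 2.90 RPKM, was not called (-0.16, adjusted p = 0.486). *Lhx2*, at 0.643 to 1.53 RPKM, was called (1.05, adjusted p = 0.0228) but not with a pseudocount of 1 (0.57), nor without heterozygous library 1, homozygous library 1 or homozygous library 2 (0.97 to 1.12). *Lhx2* passed the filter only by its mean in homozygous cells. It is also a dI1 factor, and the other dI1 factors of the list, *Atoh1*, *Barhl1*, *Barhl2* and *Lhx9*, stayed under 1 RPKM in every library. Of these, *Barhl1* was lower in homozygous libraries (0.538 and 0.473 against 0.383 and 0.436 RPKM), and the genotypes overlapped for *Atoh1*, *Barhl2* and *Lhx9*.

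Of 8 genes whose levels are known to depend on TLX factors or to mark the neurons that make them, 5 were compared. Of these 3 were called higher and 1 lower, with a median log2 difference of 0.64. Over all genes compared 3.65% were called higher and 2.67% lower, and the median was 0.010. This list too was written with earlier results of these libraries known. *Slc17a6*, the vesicular glutamate transporter VGLUT2, had 3.30 and 3.80 against 15.1 and 14.1 RPKM (log2 difference 2.01, adjusted p = 3.78e-05). *Ebf3* had 52.6 and 54.7 against 85.2 and 82.4 RPKM (0.64, adjusted p = 0.000398). The neuropeptide precursor *Tac1* had 0.251 and 0.158 against 1.43 and 2.55 RPKM (2.74, adjusted p = 0.00512). *Tac1* passed the filter only by its mean in homozygous cells. Its call rested on 3 and 3 against 24 and 36 reads and is less certain than the adjusted p implies. The peptide gene *Sst* went the other way, with 120 and 130 against 67.6 and 81.3 RPKM (-0.75, adjusted p = 0.00293). The glutamate receptor subunit *Gria2* had a log2 difference of 0.17 and was not called (adjusted p = 0.150), and *Cck*, *Grp* and *Grpr* were under the filter.

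Genes of the dI4 inhibitory class lay on the other side of 0. Of 14 such genes, 12 were compared and 11 were called lower, 0 higher, with a median log2 difference of -2.32. The list includes *Lhx1* and *Lhx5*, whose proteins also mark dI2 neurons, a class that the paper found reduced in the mutants. Their values do not separate the classes. Over all genes compared 2.67% were called lower and 3.65% higher, and the median was 0.010. As the list was written with earlier results of these libraries known, it is no independent evidence of direction. *Pax2*, the dI4 selector, had 106 and 119 against 17.7 and 18.6 RPKM (log2 difference -2.62, adjusted p = 5.02e-06). *Gad2*, a GABA-synthesising enzyme, had 25.7 and 25 against 4.12 and 4.07 RPKM (-2.60, adjusted p = 3.4e-06), and *Slc32a1*, the vesicular GABA transporter, 34.3 and 36.6 against 6.05 and 6.65 RPKM (-2.46). *Pax5* was not called (-1.13, adjusted p = 0.0695).

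**Figure D4:**
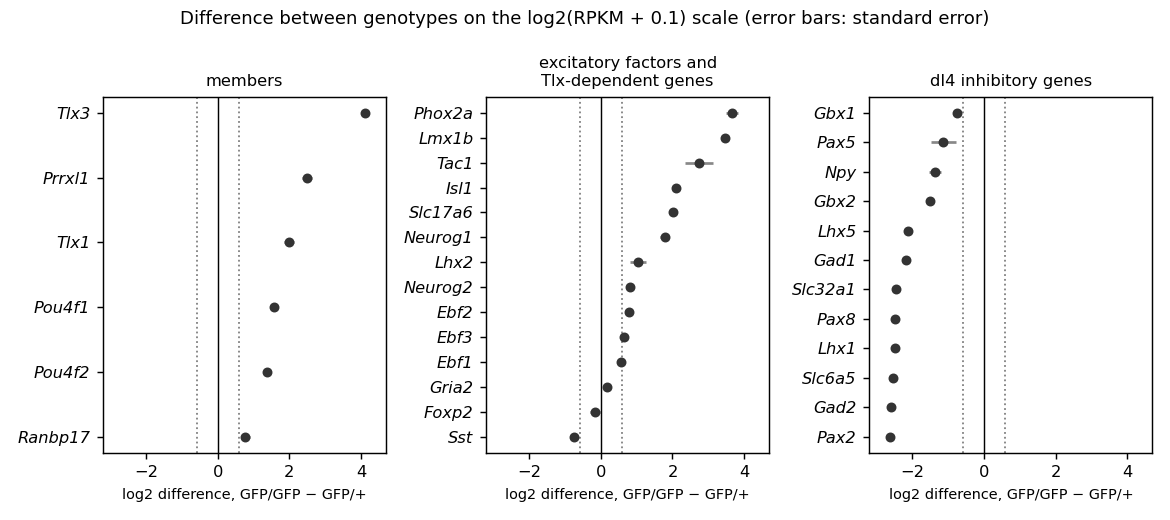
Log2 difference (homozygous minus heterozygous, RPKM + 0.1) with standard errors and dotted lines at 1.5-fold in either direction. The left panel holds the 6 members that passed the filter. The middle panel holds other excitatory lineage and progenitor factors and genes linked to TLX, and the right panel dI4 inhibitory genes. The members span 0.77 to 4.11, *Phox2a* and *Lmx1b* lie at 3.66 and 3.46, and the inhibitory genes reach -2.62.

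*Tlx1*, *Tlx3*, *Prrxl1* and the Brn3 genes are also made by sensory neurons of the dorsal root ganglia, which lie beside the neural tube. The 8 ganglion markers reported here were under 1 RPKM in every library and did not pass the filter. Their sum was 1.98 and 2.68 RPKM in heterozygous and 1.99 and 2.26 RPKM in homozygous libraries. Within it, *Runx1*, *Runx3* and *Scn10a* were between 0 and 0.0752 RPKM, and *Avil* was 0.0855 and 0.0900 against 0.223 and 0.217 RPKM. Most of the sum came from the markers not named here, and the highest value of a single marker in a library was 0.995 RPKM. What part ganglion cells had in the differences of the Tlx, *Prrxl1* and Brn3 genes was not tested.

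Of 4 neural crest and glia markers reported here, *Foxd3*, which is also made in dI2 neurons, was compared. It was called lower, with 10.1 and 12.8 against 4.20 and 4.25 RPKM (log2 difference -1.41, adjusted p = 0.000527). *Sox10*, which defines the lineage, was under the filter, with 0.255 and 0.603 against 0.680 and 0.781 RPKM, so its homozygous libraries were the higher ones. Of 5 motor neuron, 5 endothelial and 5 mesenchymal markers none passed the filter. Of 6 erythroid markers 2 were compared and 0 were called, and *Hba-a1* and *Hba-a2* were listed at 0. The 6 markers together had 30.8 and 31.4 RPKM in heterozygous and 34.5 and 33.1 RPKM in homozygous libraries. RNA of such markers was thus present in every library, and its source was not tested.

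Genes with the pattern most like each member were found by the distance between log2 values over the 4 libraries, each centred on its own mean, where 0 is the same pattern. With only 4 libraries of 2 genotypes this mostly compares the size of the difference. Of the 3 genes nearest to *Tlx3*, those reported here were *Mir6921* (0.214), which rested on 0 and 0 against 2 and 2 reads, and *Prdm12* (0.333), a regulator of sensory and ventral neurons with 0.594 and 0.596 against 13.4 and 15.4 RPKM. *Tlx1* was nearest to *Fgd5*, *Pla2g7* and *Tmem163* (0.0455 to 0.124), and *Prrxl1* to the synaptotagmin gene *Syt13*, *Fam46c* and *Fibcd1* (0.179 to 0.281). For *Pou4f1* they were the stem cell receptor gene *Lgr5*, *Vstm2l* and the synuclein gene *Sncg*, and for *Pou4f2* the synaptotagmin gene *Syt4*, the nephrin gene *Nphs1* and the imprinted gene *Peg10*. *Ranbp17* was nearest to *Gpx3*, *Arpin* and *Slc6a11*, and *Slc6a11*, a GABA transporter gene, had 0.808 and 0.685 against 1.39 and 1.38 RPKM.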

How the data were processed

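RNA-seq of GFP+ cells was analysed from 4 libraries, grouped by the submitters' labels. The authors aligned reads with TopHat2 2.1.0 to mm10, counted them on RefSeq exons with featureCounts 1.5.0-p1 and normalized them by TMM in edgeR 3.6.8, and the deposited values are RPKM. Read strand is not given in the sources used here. Whole reads were solved from the RPKM steps for 19195 of 19200 genes above 0, and 71.6% of 18451 solved exon lengths lay within 5% of the annotated one. The limit of detection was set at 3 reads, for counting error alone.

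All genes averaging 1 RPKM or more in 1 of the genotypes entered a linear model on log2(RPKM + 0.1), fitted by limma 3.58.1 (R 4.3.3; lmFit, then eBayes with its trend option), two-sided, with Benjamini-Hochberg adjustment over the 12046 genes. A call needed both an adjusted p below 0.05 and a difference of 1.5-fold or more. On simulated data the test called nearly all changed genes and also some unchanged genes with few reads, so calls on few reads are less certain than the adjusted p implies. The pseudocount makes folds of low genes smaller. Median absolute log2 differences between libraries of a genotype were 0.078 in both. The members, the gene lists and the tests were chosen with earlier results of these data known. The text names the members, list genes, neighbours within 250 kb and those among the 3 nearest in pattern to each member compared that are reported here, and, chosen after their values were seen, *Prdm13*, *Tubb3*, *Sox2* and *Gabrp*. Positions are those of RefSeq on GRCm38, the assembly of mm10.

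Other settings were a pseudocount of 1 or 0.01, the filter dropped or required in each library of a genotype, scaling by median ratios or quantiles, no trend, the replicate number as a block, voom on solved reads, each library left out and, chosen after seeing the data, at least 20 reads in 1 library. Tables were handled with Python 3.11.15 and pandas 2.3.3. For 4 list genes no result is given here, and list counts, medians, sums and plots exclude them, a choice made after the data were seen. ChIP-seq was not analysed here.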

Additional observations from a re-analysis of the deposited data

How the results depend on the processing

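The log2 differences of the 6 members compared kept their direction in all 14 alternatives, at 3.90 to 4.25 for *Tlx3*, 1.36 to 2.08 for *Tlx1*, 1.90 to 2.66 for *Prrxl1*, 1.54 to 1.63 for *Pou4f1*, 1.24 to 1.39 for *Pou4f2* and 0.59 to 0.91 for *Ranbp17*. The median log2 difference of the neighbours, 0.0050, lay on both sides of 0 over these alternatives, from -0.0436 without homozygous library 2 to 0.0197 without homozygous library 1. Without the filter on RPKM, calls over the whole table fell from 440 higher and 322 lower to 30 and 14, those of members to 1 (*Pou4f2*), of excitatory factors from 7 to 1, of TLX-linked genes from 3 higher and 1 lower to 0 and 0, of inhibitory genes from 11 to 3, and of *Foxd3* and the neighbours to 0, and the cause was not tested. With a pseudocount of 1, 1 neighbour was called higher in place of 3. Over the libraries left out in turn, the whole table gave 258 to 437 calls higher and 212 to 266 lower, the lowest of each without homozygous library 2, and the neighbours 1 to 2 higher and 0 to 1 lower. Where an arm is left with 1 library, that library is assumed to vary like the other genotype. With the replicate number as a block, 459 genes were called higher and 342 lower; the numbers do not pair the libraries (correlation of same-numbered deviations 0.047), and all 6 members were called in that fit. Few reads limit *Tlx2*, *Pou4f3* and *Tlx1* in heterozygous cells.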
